A study of Mus musculus with 4 samples.

Results

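The genes described here encode the 3 TGF-β ligands (*Tgfb1*, *Tgfb2*, *Tgfb3*) and 7 receptors for TGF-β and bone morphogenetic proteins (*Tgfbr1*, *Tgfbr2*, *Tgfbr3*, *Bmpr1a*, *Bmpr1b*, *Bmpr2*, *Acvr1*). Their Runx2 peaks were all peaks that overlapped, by at least 1 bp, the mm9 gene body widened by 20 kb on each side. These 10 windows, out of those of 22380 protein-coding genes, held 28 of 25457 peaks at day 0, 59 of 60596 at day 9 and 57 of 40330 at day 28, and no peak lay in more than 1 of the windows. Peaks of different days that shared at least 1 bp were merged, which gave 73 of the 67703 regions of the whole series.

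Runx2 occupancy was profiled by ChIP-Seq, in which DNA crosslinked to a protein is precipitated with an antibody (here M70 against Runx2) and sequenced. The cells were MC3T3-E1 subclone 4, a preosteoblast line from mouse calvaria labelled as C57BL/6, so that each stage was a stage of the same clonal line. Day 0 cells were proliferating preosteoblasts, day 9 cells were depositing matrix and day 28 cells were mineralizing, the later stages after culture with ascorbic acid and β-glycerophosphate. Since 1 peak list per day was made from reads of both biological repeats combined, there was no replicate error for any value below, and differences between days were described and not tested.

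TGF-β is secreted in a latent form and held in the extracellular matrix, of which bone is a large store. Once released, it binds a type II receptor kinase, which phosphorylates a type I receptor kinase, and the type I receptor in turn phosphorylates Smad proteins that enter the nucleus and join DNA-bound factors, Runx2 among them. TGF-β signals mainly through Tgfbr2 with Tgfbr1, and bone morphogenetic proteins through Bmpr2 and related type II receptors with Bmpr1a, Bmpr1b or Acvr1.

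The sequences under the peaks differed with their position. Runx proteins bind the hexamer TGTGGT, which reads as ACCACA when it lies on the opposite strand. It is in capitals in the following stretches, which run from 50 bases before to 50 bases after the centre of a day 9 peak on the plus strand of mm9. The first 3 show the hexamer in mixed sequence away from starts. The next 3 show the GC-rich sequence under peaks at gene starts, with no hexamer in the bases shown. The *Bmpr2* peak held 1 copy outside these bases.
Bmpr1a, upstream, chr14:35321493-35321593: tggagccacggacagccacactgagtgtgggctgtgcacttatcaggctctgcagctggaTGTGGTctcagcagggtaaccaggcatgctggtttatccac
Acvr1, intron 4, chr2:58334012-58334112: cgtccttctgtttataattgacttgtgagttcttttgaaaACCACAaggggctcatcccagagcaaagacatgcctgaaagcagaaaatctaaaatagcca
Tgfb3, upstream, chr12:87429074-87429174: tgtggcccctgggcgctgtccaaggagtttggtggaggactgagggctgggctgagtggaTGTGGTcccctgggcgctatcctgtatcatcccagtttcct
Tgfbr1, start, chr4:47365958-47366058: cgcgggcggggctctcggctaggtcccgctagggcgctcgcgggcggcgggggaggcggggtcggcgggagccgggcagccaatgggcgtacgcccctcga
Tgfbr3, start, chr5:107718051-107718151: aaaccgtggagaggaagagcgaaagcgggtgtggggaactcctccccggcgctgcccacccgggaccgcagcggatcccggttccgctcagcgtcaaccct
Bmpr2, start, chr1:59820298-59820398: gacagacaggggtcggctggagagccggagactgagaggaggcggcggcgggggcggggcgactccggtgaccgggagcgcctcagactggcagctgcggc

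Other peaks lay in repeated sequence. The following stretches are from both *Bmpr1b* regions, where the hexamer recurs within a repeat, and from the *Acvr1* region with the fewest distinct 6-mers, a repeat without the hexamer. The last is from intron 1 of *Tgfbr2*. It is shown because its day 9 score was in the top percent of the list without a TGTGGT anywhere in the peak. There the capitals mark TGAATCA, a match to TGANTCA, in which N is any base. TGANTCA was counted as a loose form of the motif of AP-1 (Fos and Jun factors). The match starts at -48 from the centre, near the edge of the bases shown, and binding of AP-1 there was not tested.
Bmpr1b, intron 2, chr3:141556099-141556199: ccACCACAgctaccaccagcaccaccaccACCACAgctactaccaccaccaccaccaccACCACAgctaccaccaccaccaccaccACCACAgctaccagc
Bmpr1b, intron 1, chr3:141675444-141675544: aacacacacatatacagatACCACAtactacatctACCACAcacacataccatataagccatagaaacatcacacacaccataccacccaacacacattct
Acvr1, non-coding transcript, chr2:58278592-58278692: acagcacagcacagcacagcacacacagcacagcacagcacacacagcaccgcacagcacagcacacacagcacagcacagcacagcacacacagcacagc
Tgfbr2, intron 1, chr9:116062159-116062259: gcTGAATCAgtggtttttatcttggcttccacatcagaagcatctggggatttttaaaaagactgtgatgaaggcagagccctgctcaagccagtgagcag

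Nearly all of the genes had a peak at every stage. At day 0, 9 of the 10 had at least 1 peak in their window, and 65.0% of all protein-coding genes did. At days 9 and 28, all 10 had a peak, against 76.9% and 71.2% of all genes. The exception at day 0 was *Bmpr1b*. A peak at an annotated start, meaning any overlap with the 1000 bp before or the 150 bp after the start of a protein-coding transcript, was present for 8, 9 and 9 of the 10 genes at days 0, 9 and 28, while 42.6%, 51.6% and 50.0% of all genes had one. *Acvr1* and *Bmpr1b* had 5 annotated starts each, and the number of starts was not set against that of all genes. With only the start of the longest transcript, the counts were again 8, 9 and 9, but the share of all genes was not taken this way.

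These genes are long, and a longer window holds more peaks. Their median window was 132 kb against 55.4 kb for all genes, and the median number of peaks per gene was 4, 6.5 and 6.5 at days 0, 9 and 28 against 1, 2 and 2. Per 100 kb of window the medians were closer, with 2.04, 4.53 and 4.27 peaks against 1.69, 3.49 and 2.33. As the plot of peak density shows, the genes spread widely within the family, with *Tgfb1* at percentile 92.9 of all genes at day 9 and *Bmpr1b* at 24.1.

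**Figure D1:**
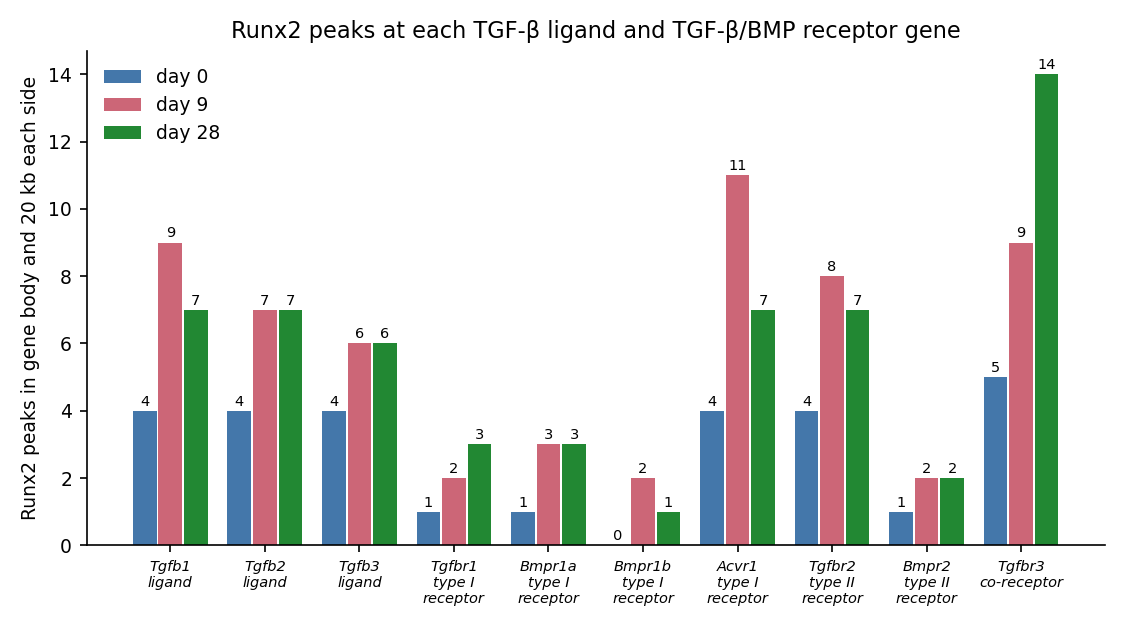
Number of Runx2 peaks (y axis) in the gene body and 20 kb on each side of each of the 10 genes at day 0, day 9 and day 28, with the count above each bar. *Tgfbr3* had 14 peaks at day 28 and *Acvr1* 11 at day 9, while *Bmpr1b* had no peak at day 0 and *Bmpr2* had 1 or 2 at each stage.

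**Figure D2:**
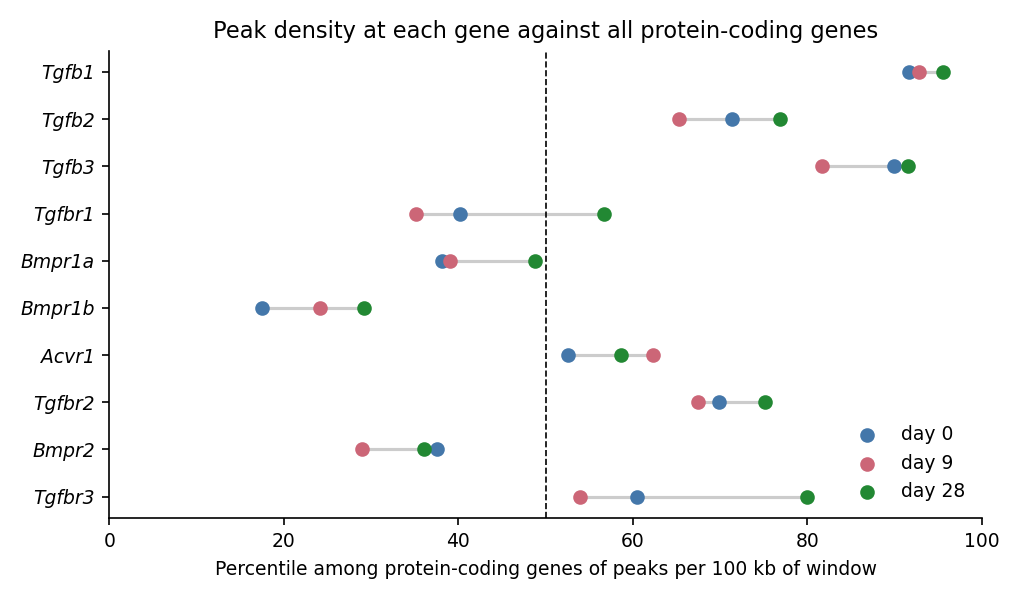
Percentile of each gene among all protein-coding genes in peaks per 100 kb of its window (x axis) at the 3 time points, with ties at their midpoint and a dashed line at 50. *Tgfb1* and *Tgfb3* lay above 80 at each stage, and *Bmpr1a*, *Bmpr1b* and *Bmpr2* lay below 50 at each stage.

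The 73 regions were grouped into clusters by the days on which they held a peak. Cluster 1 (all 3 days) held 21 regions, or 28.8% against 27.4% of all regions of the series, and cluster 4 (days 9 and 28) held 18, or 24.7% against 21.1%. Day 28 alone (cluster 5) held 13 regions, or 17.8% against 7.59%, and day 9 alone (cluster 6) held 15, or 20.5% against 34.5%. The remaining 6 regions were seen at day 0 alone (3), at days 0 and 9 (2) or at days 0 and 28 (1). Each list was then reduced to the number of peaks in the shortest, and regions were grouped anew. Of the 43 regions left, 4 were seen at day 28 alone, 4 at day 9 alone and 7 at day 0 alone. The shares of all regions were not taken at this length, so these counts cannot be set against the series.

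By gene, 9 of the 10 had a cluster 1 region, against 61.1% of all genes, and all 10 had a cluster 4 region, against 38.9%. Cluster 5 regions were present at 7 genes, against 17.2% of all genes, cluster 6 regions at 8, against 52.3%, and cluster 7 regions (day 0 alone) at 3, against 11.6%. Since all 10 windows are longer than the median window of all genes, these counts are not comparable with the share of all genes at equal length.

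Peaks of a single stage were mostly weak. The MACS score in the lists is −10 times the log10 of the peak's p-value, and it was ranked here only as a percentile within the same day's list, with peaks of equal score at the midpoint of their ranks. In the 13 cluster 5 regions the percentile lay between 2.66 and 60.1 with a median of 24.9, and the median over all cluster 5 peaks of the series was 17.5. In the 15 cluster 6 regions it lay between 2.52 and 74.6 with a median of 22.9, against 26.6 for all cluster 6 peaks. With only peaks of a score of at least 500 retained, none of the cluster 5 regions was left.

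Of the 73 regions, 11 lay at a start of the gene itself (15.1%) and 62 elsewhere. Of all regions of the series, 18.0% lay at a start of any protein-coding gene. That is a wider measure, so the shares are not directly comparable. Among the 11 at starts, 8 were in cluster 1, 2 in cluster 4 and 1 in cluster 6, and of all start regions of the series 71.3%, 15.1% and 8.49% were in these clusters. The windows were drawn around gene bodies, which bears on the other locations. By the position of the region's centre, 40 regions were in introns, 7 in exons, 17 upstream, 8 downstream and 1 in a part of *Acvr1* that only a non-coding transcript covers. For 58 of the 73, the nearest protein-coding start was that of the gene itself, and 4 regions also covered the start of another gene.

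**Figure D3:**
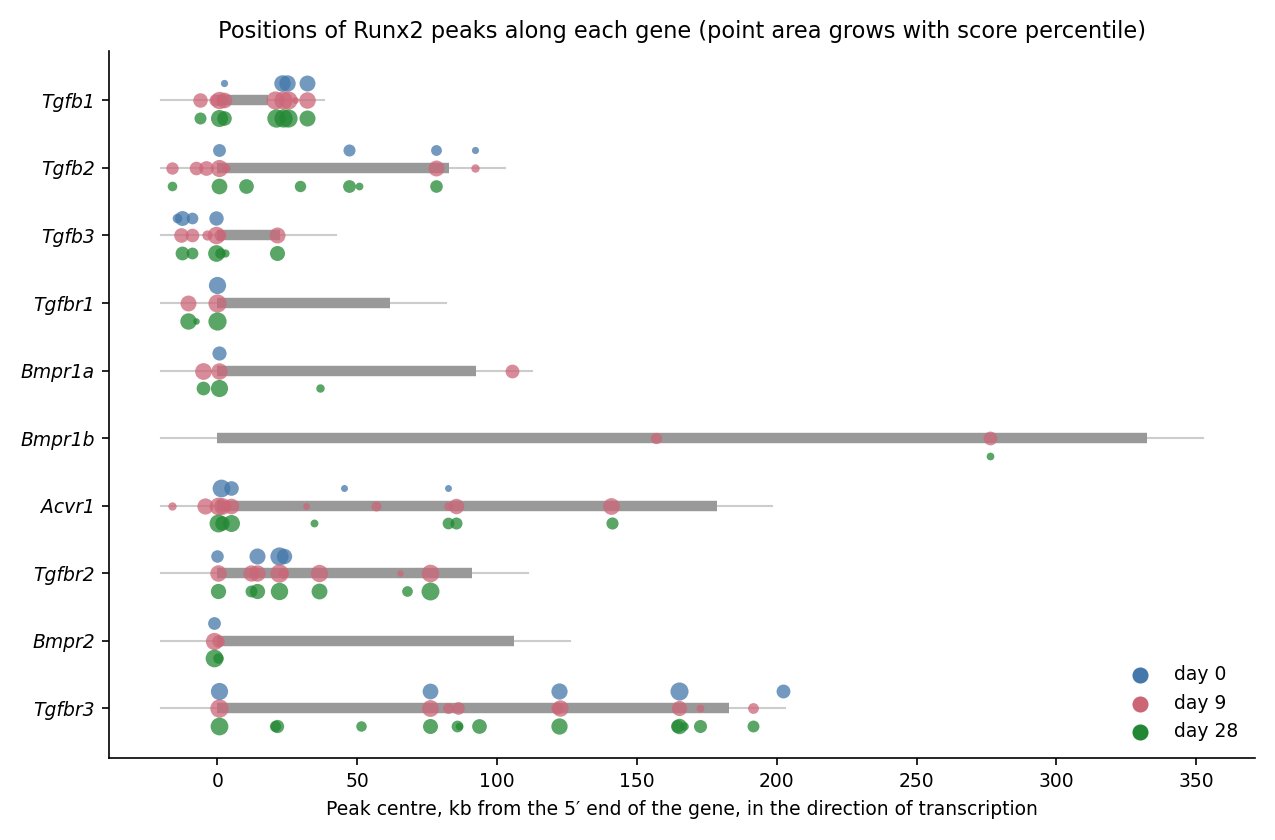
Runx2 peak centres along each gene, as the distance in kb from the 5′ end of the gene body in the direction of transcription (x axis). Thick bars are gene bodies, thin lines the 20 kb on each side, and the area of a point grows with the score percentile of the peak within its day's list. Points of all 3 days stack at the 5′ end for 8 genes, *Tgfb1* has its largest points beyond the 3′ end, and the day 28 points of *Tgfbr3* spread over its whole length.

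The ligand genes held 27 regions, with 12, 22 and 20 peaks at days 0, 9 and 28. *Tgfb1* (chr7:26472021-26490096, plus strand) encodes the most abundant TGF-β of bone matrix. Its window held 4, 9 and 7 peaks, with the highest peak density of the 10 genes at each stage (percentiles 91.7, 92.9 and 95.5 of all genes). At its start, no peak was called at day 0. A region over exon 1 (chr7:26471536-26473400) had a score of 1636 at day 9 (percentile 88.2) and 1370 at day 28 (percentile 84.5). A weaker peak just upstream, within the body of *B9d2*, was called at day 9 only with a score of 189 (percentile 37.4).

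The strongest peaks of the *Tgfb1* window lay beyond its 3′ end. A region 20.9 kb from the start (chr7:26491867-26493926) lay in no other protein-coding gene. It had no peak at day 0, a score of 3100 at day 9 and 3156 at day 28 (percentiles 97.4 and 99.8). The adjacent region (chr7:26494676-26497796), inside the body of *Ccdc97*, held a pair of peaks at each stage. Their scores were 580 and 566 at day 0 (percentiles 78.0 and 77.2), and all 4 later peaks had a score of exactly 3100. That value was shared by 192, 2699 and 1468 peaks of the day 0, 9 and 28 lists, so these peaks could not be ranked against each other. Scores above it, such as 3156, may likewise not stand for stronger peaks, because the lists do not say how the shared value arose. Of the 8 *Tgfb1* regions, 3 had a *Tgfb1* start as the nearest, and the others lay nearer to *Ccdc97* or *B9d2*, whose starts were each covered by 1 region.

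*Tgfb2* (chr1:188447065-188529871, minus strand), which encodes the ligand required for several craniofacial and skeletal structures in mouse embryos, had 4, 7 and 7 peaks in 11 regions. Every region had a *Tgfb2* start as the nearest. Its start region over exon 1 (chr1:188528888-188529846) had scores of 232, 1408 and 695 at days 0, 9 and 28, at percentiles 43.1, 86.0 and 69.9. The highest peak elsewhere was in intron 6 (chr1:188451138-188451912), with scores of 167, 643 and 252. It held TGTGGT within 50 bp of the peak centre at days 0 and 28, as did an intron 1 region that was called at days 0 and 28 and not at day 9. Day 28 alone accounted for 3 regions, all in intron 1. Of all genes, 1.46% had 3 or more regions of this cluster, a share not adjusted for length. The *Tgfb2* window of 123 kb is at percentile 86.8 of all genes.

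*Tgfb3* (chr12:87397694-87419991, minus strand), the ligand whose loss leaves the palate cleft in mice, had 4, 6 and 6 peaks in 8 regions. Its start region, centred 517 bp upstream (chr12:87420170-87420846), had scores of 321, 1859 and 1134 (percentiles 56.8, 89.9 and 80.8). The strongest peak elsewhere lay in exon 7, the region chr12:87398179-87399067, with no peak at day 0 and scores of 656 and 524 at days 9 and 28. Upstream, 4 regions lay within the body of *1700019E19Rik*, and 1 of these covered its start. Among them was the cluster 1 region whose TGTGGT is printed above, with percentiles of 33.6, 49.9 and 34.5. All 3 ligand genes thus had a start peak at days 9 and 28, and the highest day 9 start peak of each lay between percentiles 86.0 and 89.9.

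The type I receptor genes held 21 regions, with 6, 18 and 14 peaks at days 0, 9 and 28. *Tgfbr1* (chr4:47366094-47427803, plus strand), the receptor kinase that phosphorylates Smad2 and Smad3, had 1, 2 and 3 peaks. Its start region (chr4:47364950-47367032) had scores of 793, 3100 and 3100, at percentiles 86.3, 97.4 and 97.8. The other strong region lay 10462 bp upstream (chr4:47355269-47355995), with no peak at day 0 and scores of 630 and 958 at days 9 and 28. No peak centre lay within the gene body, and no *Tgfbr1* peak held TGTGGT within 50 bp of its centre.

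*Bmpr1a* (chr14:35223920-35316527, minus strand), a receptor kinase for BMP2 and BMP4 that phosphorylates Smad1 and Smad5, had 1, 3 and 3 peaks. Its start region (chr14:35315038-35316753) had scores of 305, 856 and 1450 (percentiles 54.9, 77.9 and 85.6). The region 5043 bp upstream (chr14:35321239-35321902) had no peak at day 0, a score of 1051 at day 9 (percentile 81.4) and 339 at day 28 (percentile 50.7). It held TGTGGT within 50 bp of the centre on both days, and of the day 9 peaks with the hexamer at this distance it had the highest score. The other 2 regions were seen on a single day, 1 in intron 1 at day 28 and 1 downstream within *Mmrn2* at day 9.

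*Bmpr1b* (chr3:141500100-141832389, minus strand), the BMP receptor kinase known for its role in digit cartilage, had the fewest peaks of the 10 genes over the 3 stages and the longest window, 372 kb. No peak was called in it at day 0, 2 at day 9 and 1 at day 28, and none of them was at any of its 5 annotated starts. A region in intron 2 (chr3:141555923-141556376) had scores of 277 at day 9 and 117 at day 28 (percentiles 51.4 and 8.30). The intron 1 region (chr3:141675170-141675818) had a score of 163 at day 9 alone. Both lay over the repeats printed above, and the day 9 peaks held 8 and 13 copies of the hexamer on either strand.

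*Acvr1* (chr2:58241055-58419568, minus strand) encodes the BMP receptor kinase that is mutated in the heterotopic bone disorder fibrodysplasia ossificans progressiva. It had 4, 11 and 7 peaks in 12 regions, of which 9 were in introns. Its start region (chr2:58417262-58420193) held a day 0 peak with a score of 1137 (percentile 92.7), and the peaks over the start at days 9 and 28 had scores of 2126 and 2622 (percentiles 91.6 and 94.3). The region also covered the start of *Upp2*, so the peaks could not be assigned to either gene. An intron 1 region 4.58 kb from the start had percentiles of 59.1, 69.5 and 83.4 at days 0, 9 and 28, whereas 5 regions of this gene were seen at day 9 alone. Of the 12, 7 regions had an *Acvr1* start as the nearest.

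The type II receptor genes held 11 regions, with 5, 10 and 9 peaks at days 0, 9 and 28. *Tgfbr2* (chr9:115993415-116084383, minus strand), the constitutively active kinase that binds TGF-β first, had 4, 8 and 7 peaks in 9 regions, all nearest to its own start. Its strongest region at days 0 and 9 was not the start but a region in intron 1, 22.2 kb downstream (chr9:116061595-116062815). There the scores were 2054, 3183 and 1651 at days 0, 9 and 28, at percentiles 97.7, 99.9 and 87.9, and it was the highest member peak of day 0. None of these 3 peaks held TGTGGT at any position, while TGANTCA lay within 50 bp of the centre at days 9 and 28.

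At the *Tgfbr2* start (chr9:116083508-116084844), scores were 219, 860 and 576, with percentiles of 40.3, 78.0 and 65.2. A region in intron 5 (chr9:116007716-116009173) had no peak at day 0 and scores of 2161 and 2624 at days 9 and 28 (percentiles 91.8 and 94.3), the highest of this gene at day 28. The intronic region next to the strongest went the other way in rank, from percentile 66.3 at day 0 to 25.0 at day 9 and no peak at day 28. In a single intron, therefore, regions were seen at all 3 stages, at days 9 and 28 alone, and at days 0 and 9 alone.

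*Bmpr2* (chr1:59821481-59927703, plus strand), the type II receptor kinase for bone morphogenetic proteins, had 1, 2 and 2 peaks, all at its start. The region centred 1206 bp upstream (chr1:59819407-59821143) had scores of 229, 1461 and 2174, at percentiles 42.5, 86.6 and 92.0, and a weaker region over exon 1 (chr1:59821243-59821884) had scores of 200 and 166 at days 9 and 28. Within the 146 kb window no peak was called in the gene body beyond exon 1 and the adjoining part of intron 1.

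The co-receptor gene *Tgfbr3* (chr5:107535589-107718648, minus strand) encodes betaglycan, a membrane proteoglycan that presents TGF-β2 to the type II receptor. It had 5, 9 and 14 peaks in 14 regions, 12 of them in introns, and all 14 were nearest to its own starts. Its day 28 count lay at percentile 99.0 of all genes, and its day 28 density at percentile 80.0. The start region (chr5:107717298-107718941) had scores of 785, 3206 and 2216 (percentiles 86.1, 99.9 and 92.3), with the highest day 9 score of all member peaks. Its rank above the 4 day 9 member peaks at the shared score of 3100 may not stand for a stronger peak.

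Within *Tgfbr3*, 5 regions were seen at day 28 alone. Of all genes, 0.268% had at least that many, a share not adjusted for length. The *Tgfbr3* window of 223 kb is at percentile 95.2 of all genes, and *Ltbp2* also had 5 such regions, in 133 kb. Of those of *Tgfbr3*, chr5:107697043-107697515 and chr5:107697584-107698464 were close neighbours in intron 1 and were counted apart. All 5 lay in introns 1, 2, 3 and 14, with percentiles between 12.6 and 60.1. The intron 14 region of cluster 1 (chr5:107553311-107554725) was unlike them, with a score of 1686 at day 0 (percentile 96.5), 449 at day 9 (percentile 64.8) and at most 620 at day 28 (percentile 67.2). In intron 3, the region with the highest day 9 score away from the start (chr5:107642201-107643235) had scores of 460, 1109 and 522, and each of its peaks held 4 copies of TGTGGT.

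For the regions present at all 3 stages, the percentile was compared between days, with regions at the shared score of 3100 on both days left out. The lists differ in length and in the share of their peaks at starts (35.7%, 20.2% and 27.3% at days 0, 9 and 28), so a percentile can differ between days without a difference in binding. At starts, 7 of 8 had a higher percentile at day 9 than at day 0, against 91.0% of such cluster 1 regions at starts in the whole series. The exception was *Acvr1*, with 92.7 at day 0 and 91.6 at day 9. From day 9 to day 28, 3 of 7 had a higher percentile (*Bmpr1a*, *Bmpr2* and *Acvr1*), against 28.5%. *Tgfb2*, *Tgfb3*, *Tgfbr2* and *Tgfbr3* were lower at day 28 than at day 9, and *Tgfbr1* was at 3100 on both days. Away from starts, 11 of 13 were higher at day 9 than at day 0, against 63.0%, and 3 of 12 were higher at day 28 than at day 9, against 28.7%.

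**Figure D4:**
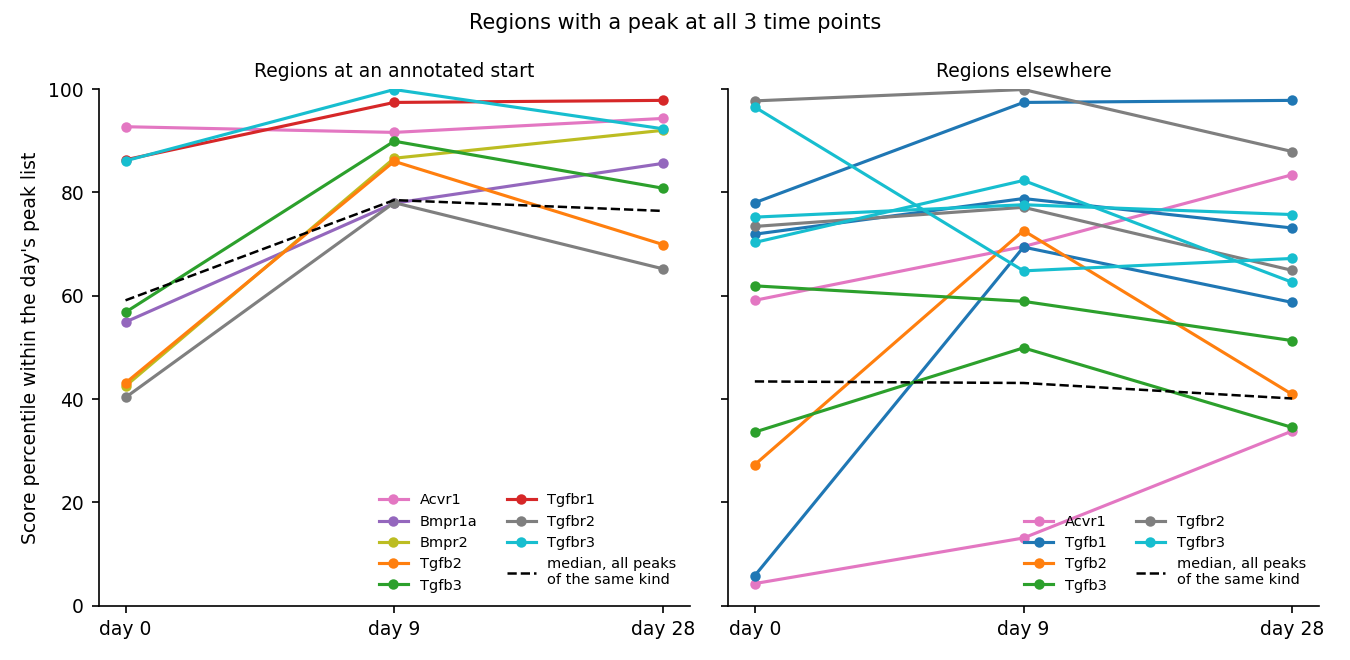
Score percentile within the day's list (y axis) at day 0, day 9 and day 28 for the 21 regions with a peak on all 3 days, split into the 8 at a start and the 13 elsewhere, with the higher value where a region held more than 1 peak of a day. Dashed lines are medians over all peaks of the list at any protein-coding start or away from such starts. They include peaks of all clusters, so they are no background for regions with a peak on all 3 days. At starts, 5 of the 8 lay below 60 at day 0 and none did at days 9 or 28, while elsewhere the *Tgfbr3* region in intron 14 was at 96.5 at day 0 and 64.8 at day 9. The *Tgfbr1* start and the top *Tgfb1* line are at the tied score of 3100 on both later days.

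With the same limit on comparing lists, the median percentile of start peaks was 55.9, 86.6 and 85.1 at days 0, 9 and 28 for the 10 genes, and 59.1, 78.5 and 76.4 for all start peaks of the lists. Peaks away from the gene's own starts had medians of 60.5, 58.4 and 42.6, against 43.4, 43.1 and 40.1 for all peaks away from any protein-coding start. At or above the 90th percentile lay 3 of 28 peaks at day 0, 8 of 59 at day 9 and 8 of 57 at day 28, and by construction 10.0% of each whole list did. The 8 of day 9 belonged to *Tgfb1* (3), *Tgfbr2* (2), *Tgfbr1*, *Tgfbr3* and *Acvr1*.

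The Runx hexamer was found at few of the peak centres. TGTGGT on either strand lay within 50 bp of the centre in 4 of 28 peaks at day 0 (14.3%, exact 95% binomial interval 4.03 to 32.7), 10 of 59 at day 9 (16.9%, 8.44 to 29.0) and 10 of 57 at day 28 (17.5%, 8.75 to 29.9). The shares over all peaks were 16.0%, 25.3% and 20.9%, each inside the interval of the same day. In flanking windows of the same length, between 450 and 550 bp from the centre on each side, the hexamer was in 5.36%, 4.24% and 7.02% of the flanks of these peaks and in 6.68%, 7.32% and 6.99% of the flanks of all peaks.

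At starts the hexamer was at 0 of 8, 0 of 11 and 1 of 10 centres at days 0, 9 and 28, and for 0 of 11 the interval reaches 28.5%. Start peaks of all genes had it in 4.80%, 6.19% and 5.20%. The exception was the day 28 peak of *Bmpr2*. Away from the gene's own starts it was at 20%, 20.8% and 19.1% of the centres, against 22.2%, 30.2% and 26.8% for all peaks away from any protein-coding start. GC content went with position, with medians over the 150 bp on either side of the centre of 71.8%, 71.1% and 73.3% at the starts of these genes and 49.8%, 51.3% and 51.5% elsewhere. The part of base composition in the share of the hexamer was not tested. TGANTCA, by comparison, lay within 50 bp of 7.14%, 1.69% and 5.26% of the centres at days 0, 9 and 28, against 6.07%, 3.69% and 4.63% over all peaks.

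**Figure D5:**
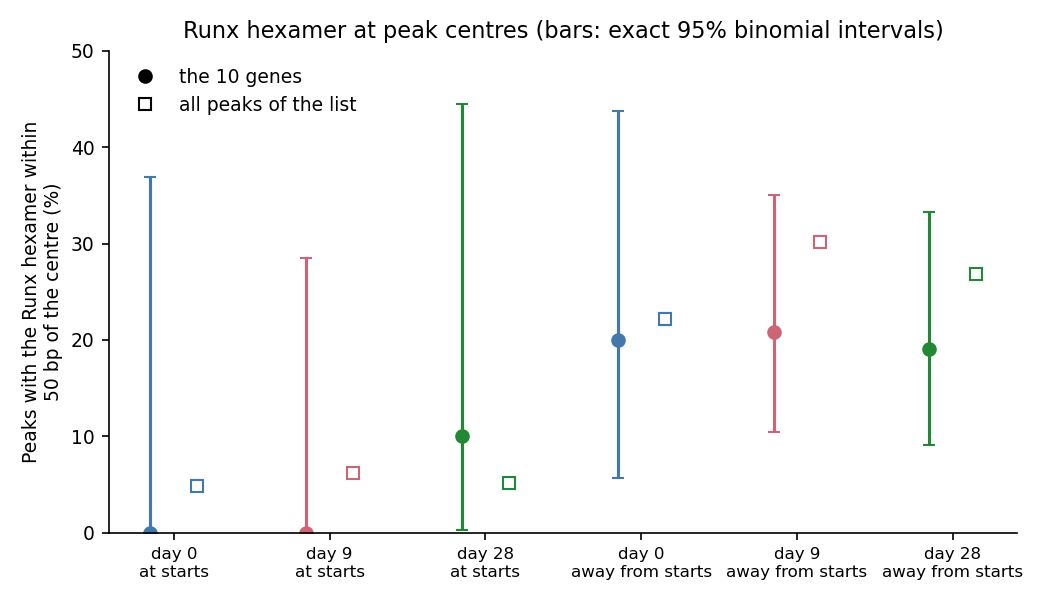
Percent of peaks with TGTGGT on either strand within 50 bp of the centre (y axis), at and away from annotated starts, for the peaks of the 10 genes (filled circles) and all peaks of the list (open squares). Starts are the gene's own for the 10 genes and those of any protein-coding gene for all peaks. Bars are exact 95% binomial intervals, which cover counting error only, and the interval of the 10 genes spans the value for all peaks in each of the 6 pairs.

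Whole peaks gave another picture of the same sequences, with the hexamer in 46.4%, 59.3% and 64.9% of the peaks of these genes and in 61.4%, 58.7% and 61.6% of all peaks. By region, 19 of the 73 had it within 50 bp of at least 1 peak centre. The share over all regions of the series was not counted. A region with more peaks has more places for a hexamer, so the shares by peak are no background for this count. The 19 regions were spread over every gene but *Tgfbr1*, with 4 at *Tgfb2*, 3 each at *Tgfbr2* and *Acvr1*, 2 each at *Tgfb1*, *Tgfbr3* and *Bmpr1b*, and 1 each at *Tgfb3*, *Bmpr1a* and *Bmpr2*.

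Repeated sequence lay under several of the day 9 peaks. The number of distinct 6-mers in those 50 bases on either side, of 96 possible, had a median of 94, 93 and 93 over the lists of days 0, 9 and 28. Below a limit of 50, set after these values were seen, lay 0 of 28, 5 of 59 and 2 of 57 peaks of the 10 genes, and 0.389%, 9.79% and 1.87% of all peaks. Of day 9 and day 28 peaks in the whole series, 21.9% of those in cluster 6, 4.41% in cluster 4, 0.875% in cluster 5 and 0.504% in cluster 1 were below it.

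The peaks of the 10 genes below that limit were in 5 regions. The *Bmpr1b* region in intron 2 had 23 distinct 6-mers on both days. The *Acvr1* region in the non-coding transcript (chr2:58278150-58279001) had 15 at day 9 and 21 at day 28, although its day 9 score of 1045 was at percentile 81.3. An upstream *Acvr1* region inside *Upp2* had 48 at day 9 with a score of 713 (percentile 74.6), and its hexamer lay within a TG repeat. Regions upstream of *Tgfb2* and in intron 3 of *Tgfbr3*, both of day 9 alone, had 43 and 48. The *Bmpr1b* region in intron 1, above the limit, had 69. Whether the repeats had a part in these calls was not tested.

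The 20 kb limit of the windows left out some close peaks. The nearest peak outside lay 21.4 kb from *Tgfb3* (day 0, percentile 72.2), 21.8 kb from *Tgfbr1* (day 28, percentile 43.8) and 22.8 kb from *Acvr1* (day 9, percentile 47.0). For *Tgfbr2* it was 43.0 kb away, but at percentile 96.6 of day 0. The farthest peak inside a window was 18.7 kb from *Tgfbr3* (day 0, percentile 52.1).

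Other genes of the pathway were read from a list of 21. At least 1 peak lay in the windows of 19, 20 and 20 of them at days 0, 9 and 28, and 9, 13 and 14 had a start peak, against the shares of all genes given above. Among 6 further receptors, *Acvr1b*, *Acvr2a*, *Acvr2b*, *Acvrl1* and *Amhr2* had peaks at every stage, with 5, 2, 7, 4 and 3 at day 9. *Acvr1c* had none at any stage in its window of 130 kb. It was the only gene of the list without a peak at day 9, and together with *Bmpr1b* it made 2 type I receptor genes with no peak at day 0.

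The 5 genes for co-receptors and decoys differed from each other. *Rgma*, a membrane-anchored BMP co-receptor, had 5, 15 and 11 peaks, and *Eng*, which encodes endoglin, had 9, 10 and 7. *Bambi*, a decoy that lacks the kinase domain, had 1 start peak at each stage, *Rgmb* had 1, 2 and 2 peaks, and *Tdgf1* had 0, 2 and 1.

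All 10 genes for the storage or activation of latent TGF-β had a peak at each stage. Their medians were 5, 8 and 6 peaks against 1, 2 and 2 for all genes, not adjusted for window length. *Fbn1*, which encodes the fibrillin of matrix microfibrils, had 10, 20 and 20, *Ltbp2* had 12, 19 and 19, *Ltbp1* had 9, 15 and 15, and *Ltbp3*, whose product binds latent TGF-β in the matrix, had 8, 12 and 10. *Lrrc32*, which encodes a cell surface anchor for latent TGF-β, had 2, 9 and 6. *Ltbp4* had 2, 6 and 6, *Thbs1* 3, 5 and 4, *Itgav* 5, 7 and 4, *Itgb6* 5, 7 and 6, and *Itgb8* 1 at each stage. At day 9, the peak density of *Ltbp3*, *Lrrc32* and *Rgma* was at percentiles 97.1, 96.0 and 95.2 of all genes, above the 92.9 of *Tgfb1*. Among the other genes of storage or activation, *Ltbp2*, *Thbs1*, *Ltbp4* and *Fbn1* were at 91.3, 79.6, 77.1 and 76.5. *Itgav*, *Itgb6*, *Ltbp1* and *Itgb8* were at 65.3, 55.7, 50.2 and 25.4, and the *Ltbp1* window was 427 kb long.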

How the data were processed

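Runx2 ChIP-Seq peak lists of days 0, 9 and 28 were analysed. Per the submitters' processing notes and the study's methods, CASAVA 1.6, Bowtie 0.12.8, mm9 and MACS 1.4.1 were used, with the reads of 2 biological repeats combined and input as the control. The authors deposited peaks with a p-value below 1e-10, and the deposited score is −10 times the log10 of the MACS p-value. The lists hold no read counts, so the depth is unknown from them, and the input and read signal were not analysed here. The study reports the most raw reads for day 0, the list with the fewest peaks, and the fewest reads for day 28. Its input libraries were made from day 9 cells.

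Peak ends lay within the chromosomes of NCBIM37 (mm9). Genes and starts were those of protein-coding genes and transcripts of GENCODE M1. Peaks sharing 1 bp were merged. Scores were used only as mid-rank percentiles within a list. The centre of a peak stood in for its summit, and hexamers counted as within 50 bp when whole in the 101-base window. Intervals were exact (Clopper-Pearson). The scripts ran under Python 3.11.15 with NumPy 2.4.6, drew figures with Matplotlib 3.10.9, took intervals from SciPy 1.17.1, and were tested on simulated data. All 10 genes were named, each with its start regions and its highest day 9 peak, plus the highest elsewhere. Genes and lists were chosen with earlier results of these data known.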

Additional observations from a re-analysis of the deposited data

How the results depend on the processing

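Most limits come from 1 pooled list per day and from lists of unequal length. No paired analysis was possible because each time point had 1 list and no test was made. Across 23 results and 118 alternative values, 77 stayed within 1.5 times the reported count or within the binomial interval, and 41 did not, 12 of these in clusters of 3 or fewer regions. With scores of at least 500, peaks at days 0, 9 and 28 were 9, 30 and 23, in 29 regions, with 7 in cluster 1, 0 in cluster 5 and 7 in cluster 6. With scores of at least 200 there were 47 regions, with 6 in cluster 5 and 6 in cluster 6. In the gene body alone there were 18 and 37 peaks at days 0 and 9, and 7 regions in cluster 6. With 50 kb on each side there were 47 and 89 peaks at days 0 and 9, and 35 and 25 regions in clusters 1 and 6. With equal numbers of top-scoring peaks there were 33 and 35 peaks at days 9 and 28, in 43 regions. Of these, 8, 4, 4 and 7 were in clusters 4, 5, 6 and 7. With the peak centre required in the promoter, 5 genes had a start peak at day 0. TGTGGT within 100 bp was in 39.0% and 36.8% of the peaks at days 9 and 28, and in the whole peak in 46.4%, 59.3% and 64.9% at days 0, 9 and 28. Counting only peaks or regions nearest to a start of the same gene was chosen after seeing the data.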
